A study of Mus musculus with 18 samples.

Results

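An alternative 3′ splice site variation is a splicing choice in which an exon end is joined to 1 of several 3′ splice sites that lie in the same region. The variations described here were those that the authors' deposited splicing tables mark as an alternative 3′ splice site, mark as neither exon skipping nor an alternative 5′ splice site, and list with no retained intron. By this rule 3486 of the 128636 local splicing variations in the 4 deposited tables were kept, in 2181 gene IDs. Each such variation groups the junctions that leave, or arrive at, the same exon end. The rule used the type of the variation and no measured use.

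The study asked how the RNA-binding proteins PCBP1 and PCBP2 bear on murine erythropoiesis. Hematopoietic progenitors were enriched from E14.5 fetal liver of the CD-1 mouse strain and were infected with MSCV-based retroviruses that carry puromycin resistance and GFP and express a short hairpin RNA. Day 0 cells were taken after 48 h in expansion medium, and Day 2 cells after 2 further days in differentiation medium with erythropoietin. Each day had 3 libraries of PCBP1 knockdown and 3 of PCBP2 knockdown (in each, hairpins 1, 3 and 4), and 3 of controls (2 scrambled hairpins and 1 luciferase hairpin), 18 libraries in all. The replicates of a knockdown were thus different hairpins, and all groups, controls included, were transduced and cultured alike. Separate cultures or litters are not mentioned in the labels, and the p-values here cover the spread among these libraries, which may be technical. In bulk RNA, fewer cells of a type and less RNA per cell cannot be told apart.

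An intron ends at its 3′ splice site, an AG dinucleotide that the splicing machinery finds downstream of a branch point and a pyrimidine-rich tract. The large subunit of U2AF reads the tract and the small subunit the AG, and the choice between neighbouring AGs is settled at the later step of splicing. PCBP1 and PCBP2, also called hnRNP E1 and E2, bind C-rich stretches of RNA, among them C-rich pyrimidine tracts. Sites a few bases apart, often in the arrangement NAGNAG, change a protein by as little as an amino acid, whereas a segment whose length is not divisible by 3 shifts the reading frame.

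The members below were chosen for display because they had the largest deposited knockdown differences, the largest differences between days, or the most even use. Each line gives the last 15 bases of the upstream exon in lower case, the segment between the 2 most used sites in capitals, and the first 15 bases of the exon after the downstream of these sites in lower case, as spliced RNA in the DNA alphabet, 5′ to 3′ on the gene's strand. A transcript that uses the upstream site keeps the capitals and a transcript that uses the downstream site removes them with the intron, so the last letters in capitals are the AG of the downstream site. Sequences and positions are from GENCODE M21 on GRCm38, and intron bases were not used here.
Tmem62 (chr2:120986836-120986915, plus strand): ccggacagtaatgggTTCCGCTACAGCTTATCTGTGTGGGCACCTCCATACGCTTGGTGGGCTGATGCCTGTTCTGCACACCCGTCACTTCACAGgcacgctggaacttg
Scaf4 (chr16:90242653-90242718, minus strand): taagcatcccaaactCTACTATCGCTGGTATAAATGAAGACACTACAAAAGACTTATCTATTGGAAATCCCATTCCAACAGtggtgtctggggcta
Cdk13 (chr13:17719626-17719805, minus strand): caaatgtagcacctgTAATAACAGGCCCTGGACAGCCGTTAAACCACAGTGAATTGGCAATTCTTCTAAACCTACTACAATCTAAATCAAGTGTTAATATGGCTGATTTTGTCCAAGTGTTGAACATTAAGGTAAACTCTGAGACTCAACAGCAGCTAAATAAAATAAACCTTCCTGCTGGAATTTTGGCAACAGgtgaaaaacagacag
Nemf (chr12:69341057-69341076, minus strand): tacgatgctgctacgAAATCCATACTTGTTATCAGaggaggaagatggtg
Scyl3 (chr1:163934632-163934692, plus strand): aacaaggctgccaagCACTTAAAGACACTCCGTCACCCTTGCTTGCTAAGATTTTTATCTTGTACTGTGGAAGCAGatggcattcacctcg
Tecta (chr9:42340366-42340368, minus strand): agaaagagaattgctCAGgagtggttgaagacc
Kalrn (chr16:34014212-34014214, minus strand): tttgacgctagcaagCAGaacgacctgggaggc
Reps2 (chrX:162514349-162514351, minus strand): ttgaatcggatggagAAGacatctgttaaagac
Phf20l1 (chr15:66604777-66604779, plus strand): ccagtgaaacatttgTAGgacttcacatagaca
4932438A13Rik (chr3:36949883-36949885, plus strand): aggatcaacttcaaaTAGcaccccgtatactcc
The segments ran from 3 to 180 bases. Those of Scaf4 (66 bases), Cdk13 (180 bases) and the 3-base members are divisible by 3, and those of Tmem62 (80 bases), Nemf (20 bases) and Scyl3 (61 bases) are not. All 10 lie in annotated coding sequence.

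Most members were a choice between 2 sites. Of the 3486 members, 2806 (80.5%) had 2 sites, 554 had 3, 107 had 4, 14 had 5 and 5 had 6. In 3137 members (90%) a single junction was in GENCODE M21, in 328 there were 2 such junctions, and in 8 there was none. The segment between the outermost sites was annotated as coding sequence in 2328 members (66.8%), as 5′ UTR in 21, as 3′ UTR in 26 and as part of a noncoding gene in 26. In the other 1085 it lay in no annotated exon of its coding gene. The tables listed more members at Day 0 (3423) than at Day 2 (1726), and 1663 were listed on both days and 1444 in all 4 tables. A total of 36 members repeat the junctions of another member.

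The sites of a pair were close together. Over the 2806 members with 2 sites the median distance was 17 bases, the quartiles were 4 and 54 bases, and the range was 1 to 4850 bases. The classes held 290 pairs at 1 base, 127 at 2, 226 at 3, 187 at 4, 411 at 5 to 12, 837 at 13 to 50, 524 at 51 to 200 and 204 at over 200 bases. The distance was divisible by 3 in 995 pairs (35.5%). In 1636 pairs at least 2 bases apart the segment could be read from annotated exons, and 1590 of these (97.2%) had AG just before the downstream site. The AG was there in 183 of 187 readable pairs at 3 bases (97.9%), in 93 of 123 at 2 bases (75.6%) and in 0 of 28 at 1 base, where the AG of the upstream site leaves no room for another.

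A smaller set, in which the less used site carried a sizeable share of the junction use, had another distance profile. The deposited tables give this share as E(PSI), the expected percent of the variation's junction use, for all libraries of a group together, with no value per library and no read number. Among the 2756 pairs listed in the Day 0 controls, 126 had at least 10% on the less used site. Of these 126, 59 (46.8%) were 3 bases apart, against 221 (8.02%) of all 2756. At a minimum of 20% the share at 3 bases was 36 of 61 pairs (59%), and at a minimum of 5% it was 87 of 277 (31.4%). The distance was divisible by 3 in 64.3% of the 126 pairs and in 35.6% of all. Outside the pairs up to 3 bases apart the shares were 36.7% (22 of 60) and 35.7% (759 of 2125), so the excess lay at 3 bases. The upstream site was the more used in 62.7% of the 126 and in 62.2% of all pairs, and both junctions were in GENCODE M21 in 43.7% and 7.98%.

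The same profile was found in the knockdowns at Day 0, where 54 of 104 such pairs (51.9%) in PCBP1 knockdown and 64 of 132 (48.5%) in PCBP2 knockdown were 3 bases apart. At Day 2 the 3-base pairs were 13 of 40 (32.5%) in PCBP1 knockdown, 13 of 48 (27.1%) in PCBP2 knockdown and 13 of 52 (25%) in controls. These counts share most of their variations between groups and were not tested against each other.

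**Figure D1:**
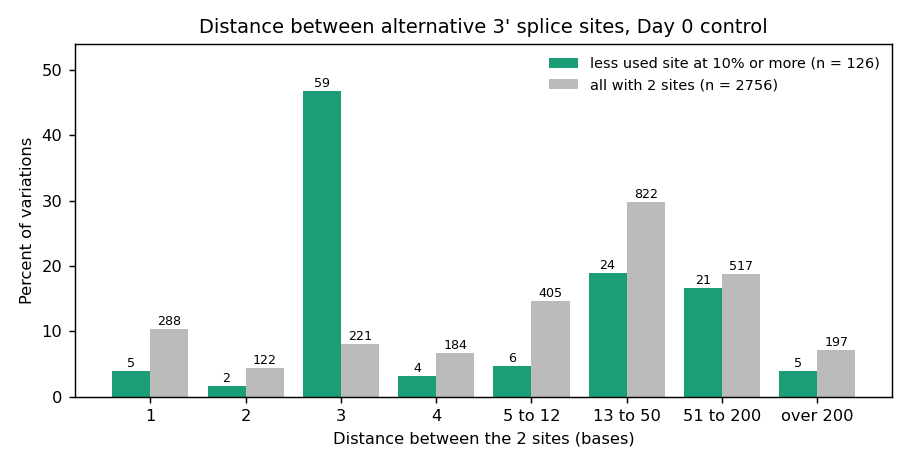
Percent of 2-site variations (vertical axis) by the distance between the sites in bases (horizontal axis) in the Day 0 controls, for the 126 pairs whose less used site reached 10% and for all 2756 pairs, with the number of pairs above each bar. The 3-base class held 59 of the 126 and 221 of the 2756.

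The triplet between 3-base pairs went with how evenly they were used. Of the 226 such pairs, 187 could be read: the triplet was CAG in 64, AAG in 58, GAG in 44, TAG in 17 and another in 4. In Day 0 controls the upstream site, whose use keeps the triplet in the exon, had a median E(PSI) of 82.1% for CAG (n = 63, quartiles 51.8% and 93.8%), of 91.3% for TAG (n = 17), of 98.2% for AAG (n = 56) and of 99.6% for GAG (n = 43). Both sites reached 10% in 32 of the 63 CAG pairs (50.8%), 8 of the 17 TAG pairs, 7 of the 56 AAG pairs (12.5%) and 1 of the 43 GAG pairs (2.33%). The triplet forms the last 3 bases before the downstream site, and downstream sites preceded by GAG were used least. Pairs are readable when the longer exon is annotated, and in the 38 pairs that could not be read the upstream median was 2.8%, so annotation goes with which site is used.

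The triplet medians were close between conditions at Day 0. For CAG they were 84% in PCBP1 knockdown, 81.9% in PCBP2 knockdown and 82.1% in controls. For TAG they were 95.5%, 92.1% and 91.3% in the same order, for AAG 98.8%, 98.8% and 98.2%, and for GAG 99.6%, 99.7% and 99.6%. At Day 2 the CAG medians were 90.8% in PCBP1 knockdown (n = 14), 80.1% in PCBP2 knockdown (n = 14) and 86.9% in controls (n = 16), with quartiles as far apart as 15.5% and 91.1% in PCBP2 knockdown.

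The tract in front of the downstream site was read where the segment was at least 23 bases long. In the 20 bases before the downstream AG, the median was 35% C and 40% T for 131 sites used at 10% or more in Day 0 controls, and 30% C and 35% T for 495 sites used less. The letters CCC, searched on the transcript strand only and counted once per window, stood in 56 of the 131 (42.7%), in 161 of the 495 (32.5%) and in 217 of all 626 windows (34.7%). These are counts of letters and not of bound sites.

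Use of the sites was lopsided in every group. The most used site had a median E(PSI) of 99.1% in Day 2 PCBP1 knockdown, 99% in Day 2 PCBP2 knockdown and 99% in Day 2 controls, and of 99.4% in each of the 3 groups of Day 0. The other sites together reached 10% in 78 members (4.74%) of Day 2 PCBP1 knockdown, 87 (5.5%) of Day 2 PCBP2 knockdown and 105 (6.08%) of Day 2 controls. At Day 0 they did so in 150 (4.52%), 185 (5.43%) and 183 (5.35%) in the same order. The most used junction was in GENCODE M21 in 99.7% of members on each day in controls.

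Most evenly used pairs of the distance classes, which were named by a fixed rule, kept a mixed use in all conditions. 4932438A13Rik, a large gene of little-known function, has a 3-base pair around TAG, and its upstream site had an E(PSI) of 63.7% in PCBP1 knockdown, 64.8% in PCBP2 knockdown and 50.7% in controls at Day 0. Trip10, which encodes a CDC42-binding protein that shapes membranes, had 49.7%, 51.4% and 47.1% at its 3-base pair in the same order. Tefm, a mitochondrial transcription elongation factor, had 18.5%, 20.4% and 20.7% at sites 247 bases apart, a spread under 3 points. Appl2, an endosomal adaptor, had 72.3%, 68.2% and 79.8% at sites 214 bases apart. BC048403, listed in the PCBP2 table alone, had 66% in PCBP2 knockdown and 65.1% in controls at sites 167 bases apart. AW146154 had 51.1%, 51.8% and 34.4% in PCBP1 knockdown, PCBP2 knockdown and controls, which puts both knockdowns above the same pooled control value. In the authors' deposited table its downstream site had an E(dPSI), the expected change of E(PSI) as knockdown minus control, of -4.06 points against either knockdown, with probabilities of a change of at least 20 points of 0.0275 and 0.0219.

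Target mRNA was lower in every knockdown library than in every control of the same day. Pcbp1 mRNA was at 6.24, 22.1 and 15.9 TPM in the Day 2 PCBP1 knockdown libraries, against 82.6, 86.9 and 76.1 TPM in Day 2 controls, and at 19.1, 76.5 and 31.6 TPM, against 236, 249 and 245 TPM, at Day 0. Pcbp2 mRNA was at 8.51, 9.02 and 11.1 TPM in Day 2 PCBP2 knockdown, against 49.2, 43.7 and 41.8 TPM in controls, and at 55.1, 54.8 and 54.1 TPM, against 222, 223 and 221 TPM, at Day 0. The libraries held 27033440 to 54096339 estimated reads. On the principal components of the transcript-based ratios described further on, the days separated, and the Day 2 luciferase control lay apart from the other Day 2 controls.

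No member passed the call threshold in any knockdown table. A variation was called when the deposited probability that a junction changed by at least 20 points was 0.95 or more. Members called were 0 of 1644 in Day 2 PCBP1 knockdown and 0 of 1583 in Day 2 PCBP2 knockdown, where 0.191% and 0.0718% of all variations were called. They were 0 of 3318 in Day 0 PCBP1 knockdown and 0 of 3407 in Day 0 PCBP2 knockdown, where 0.0573% and 0.0115% of all variations were called. The highest probability of a member was 0.691 and 0.845 in the Day 2 tables of PCBP1 and PCBP2 knockdown and 0.703 and 0.762 in the Day 0 tables. At a probability of 0.50 the counts were 2 members in Day 2 PCBP1 knockdown (0.122%, against 0.873% of all variations), 3 in Day 2 PCBP2 knockdown (0.19%, against 0.541%), 2 in Day 0 PCBP1 knockdown (0.0603%, against 0.276%) and 2 in Day 0 PCBP2 knockdown (0.0587%, against 0.142%). An absolute E(dPSI) of at least 20 points was found in 2, 3, 1 and 1 members of these tables in the same order, where 0.771%, 0.467%, 0.238% and 0.115% of all variations reached it. The members' shares were below the shares over all variations in each of these 4 tables at both of these levels. This difference was not tested, because variations within a table share libraries and genes. It was not particular to 3′ sites. Variations with an alternative 5′ splice site only also had 0 calls at 0.95 in each table. At a probability of 0.50 their shares were 0.235%, 0.125%, 0.104% and 0.101% in the same order of tables.

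**Figure D2:**
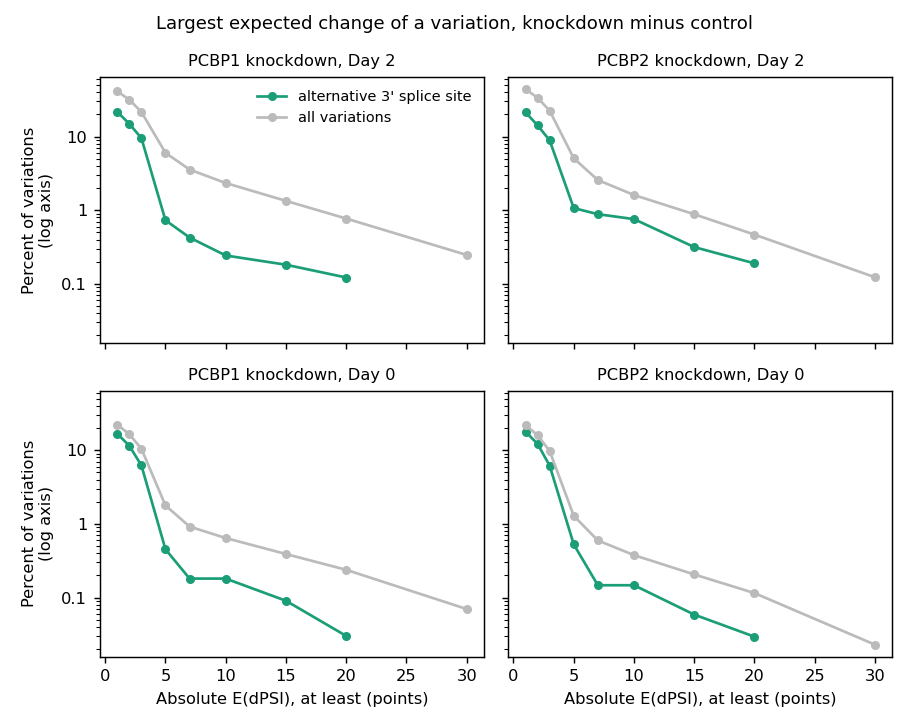
Percent of variations (vertical log axis) whose largest absolute E(dPSI), knockdown minus control in points, reached the value on the horizontal axis, for each knockdown and day, from the authors' deposited tables. The line of the alternative 3′ splice site variations ends at 20 points in all 4 panels, where it stands at 0.122% in Day 2 PCBP1 knockdown and 0.0301% in Day 0 PCBP1 knockdown.

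Small differences went both ways. The E(PSI) of the upstream site differed between knockdown and control by a median of 0.00 points in each table, with a median absolute difference of 0.40 points. The 99th percentile of the absolute difference was 12.8 points in Day 2 PCBP1 knockdown, 13.1 in Day 2 PCBP2 knockdown, 11.2 in Day 0 PCBP1 knockdown and 11.6 in Day 0 PCBP2 knockdown. The upstream site was at least 10 points higher in 19 members and at least 10 points lower in 19 in Day 2 PCBP1 knockdown, and in 18 and 13 in Day 2 PCBP2 knockdown. At Day 0 these counts were 22 and 22 in PCBP1 knockdown and 24 and 35 in PCBP2 knockdown. E(dPSI) is drawn toward 0 from the plain difference, and below 5 points its sign says little: of 235 members with 2 sites and at least 1 point in Day 2 PCBP1 knockdown, 164 had the same sign at both sites, which cannot hold for shares that sum to 100%. Of the members with at least 5 points, 0 of 4, 0 of 8, 0 of 9 and 0 of 11 in the 4 tables had it.

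Scaf4 had the largest deposited change of a member at Day 2. It encodes a protein that binds the tail of RNA polymerase II and prevents early transcript termination. Its upstream site had an E(PSI) of 77.6% in PCBP1 knockdown, 85.6% in PCBP2 knockdown and 60% in controls at Day 2, and 58.8%, 57.7% and 61% at Day 0. Both Day 2 knockdowns were above the controls, but they share this pooled control value and are not independent comparisons. The Day 0 groups lay within 4 points of each other. In the authors' deposited table E(dPSI) was 26.2 points in Day 2 PCBP2 knockdown with a probability of 0.845, the highest of any member, and 7.66 points with a probability of 0.187 in Day 2 PCBP1 knockdown. Scaf4 had 294 estimated reads in its lowest Day 2 PCBP2 knockdown library, against 485 in the lowest Day 2 control.

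Tecta, which encodes alpha-tectorin of the inner ear's tectorial membrane, has a 3-base pair around CAG and was listed at Day 2 alone. Its upstream site was at 85.8% in PCBP1 knockdown, 83.5% in PCBP2 knockdown and 61.1% in controls. E(dPSI) in the authors' deposited tables was 22.7 points (probability 0.691) and 13.5 points (probability 0.396). Tecta RNA averaged 8.38 TPM, 5.27 TPM and 5.33 TPM in the same Day 2 groups.

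Kalrn, a guanine nucleotide exchange factor best known from synapses, also has a 3-base pair around CAG. Its upstream site was at 21.5% in PCBP1 knockdown, 34.9% in PCBP2 knockdown and 51.7% in controls at Day 2, and at 41.9%, 39.8% and 38.5% at Day 0. The Day 2 knockdowns were thus below the same pooled Day 2 controls, with the Day 0 groups between them. For the downstream site the authors' deposited table gave 20.7 points with a probability of 0.587 in Day 2 PCBP1 knockdown and 0.245 points in Day 2 PCBP2 knockdown. Tecta and Kalrn, both with CAG, thus differed from the controls in opposite directions.

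In 3 members with more than 2 sites, a site that GENCODE M21 lacks had its largest use in a single Day 2 group. Gle1 encodes an mRNA export factor. Its annotated site, the third of 4, was at 96.3% in PCBP1 knockdown, 97.9% in PCBP2 knockdown and 76.2% in controls at Day 2, and at 98.9%, 98.5% and 98.7% at Day 0. The authors' deposited E(dPSI) was 17.3 and 17.9 points at Day 2, with probabilities of 0.457 and 0.486. Rbpms2, an RNA-binding protein gene, had 95.3% in PCBP2 knockdown and 69.7% in controls at the third of its 6 sites at Day 2, with an E(dPSI) of 22 points and a probability of 0.67 in the authors' deposited table. Its Day 0 values were 97.8% in PCBP1 knockdown, 94.2% in PCBP2 knockdown and 90.8% in controls. It was not listed in Day 2 PCBP1 knockdown. Rbpms2 RNA averaged 2.51 TPM in Day 2 controls, with 103 estimated reads in the lowest library. Arap1, a GTPase-activating protein for Arf, had 77.7%, 67.2% and 94.1% at its annotated site at Day 2 and 99.2%, 99.4% and 99.3% at Day 0. In Day 2 PCBP2 knockdown the authors' deposited table gave -22.2 points and a probability of 0.642. The first Arap1 site was at 3.6%, 25% and 5.4% in Day 2 PCBP1 knockdown, PCBP2 knockdown and controls. The second was at 9.4%, 3.9% and 0.3%, so it was higher in both knockdowns. Neither of these sites is in GENCODE M21. Mmel1, a membrane metalloendopeptidase listed at Day 2 alone, had 96.4%, 81.7% and 83.5% at its annotated site.

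The members that follow had large deposited changes at Day 0. 1700007L15Rik, a noncoding gene with sites 21 bases apart, had an upstream E(PSI) of 43.2% in PCBP1 knockdown, 74.7% in PCBP2 knockdown and 45.5% in controls, and 25.4 points with a probability of 0.762 in PCBP2 knockdown in the authors' deposited table. Its lowest library of that group held 66 estimated reads, against 62 in controls. Muc6, a gel-forming mucin gene, had 6.7%, 12.1% and 34.1% at the upstream, unannotated site of a 3-base pair. For its downstream site the authors' deposited tables gave 22.7 points (probability 0.703) in PCBP1 knockdown and 14.4 points (probability 0.413) in PCBP2 knockdown. Both knockdowns lay on the same side of a pooled control value that they share, so these are not independent results. Pik3c2a, a class II phosphoinositide 3-kinase gene, had 1%, 1.8% and 20.8% at its unannotated upstream site 14 bases from the annotated one. Gm15800 had 20%, 32.5% and 44.9% at sites 15 bases apart at Day 0 and 29.3%, 32.2% and 33.4% at Day 2, and its deposited Day 0 PCBP1 probability was 0.536.

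Tmem62, a transmembrane protein gene, had 94.9% in PCBP1 knockdown, 76.6% in PCBP2 knockdown and 78.1% in controls at Day 0, with 15.5 points and a probability of 0.312 in PCBP1 knockdown in the authors' deposited table. Only the PCBP1 value stood apart from the controls. Dmap1, a subunit of chromatin complexes that partners the maintenance DNA methyltransferase, had 41.3%, 31.9% and 54.5% at sites 11 bases apart, with a probability of 0.516 in PCBP2 knockdown. Reps2, an adaptor of endocytosis with a 3-base pair around AAG, was listed in the PCBP2 table, with 78.3% in PCBP2 knockdown and 97.9% in controls and a probability of 0.318.

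**Figure D3:**
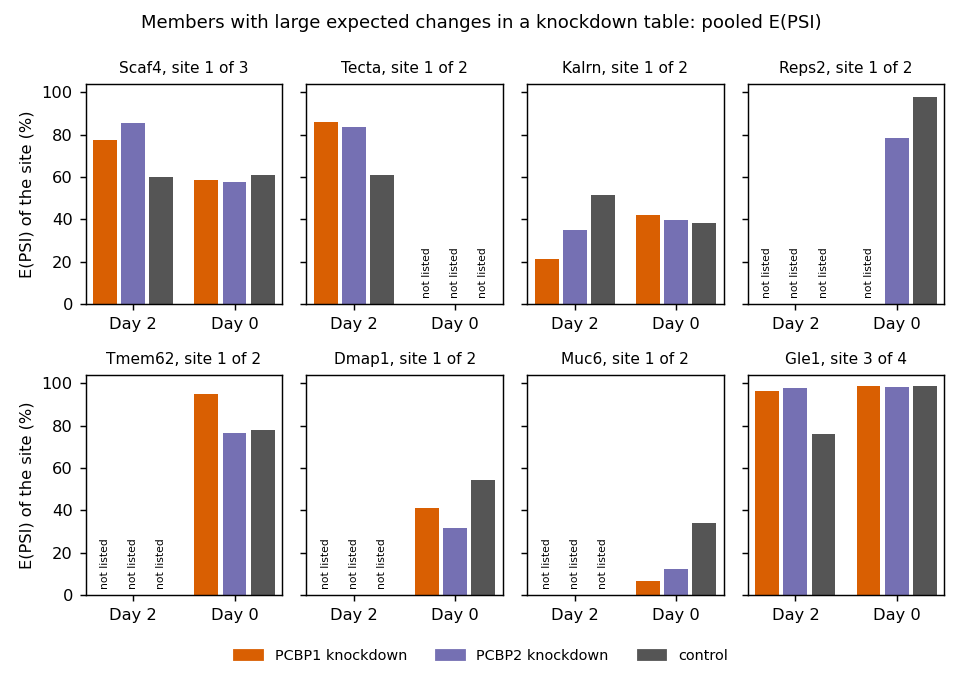
Pooled E(PSI) in percent of 1 site (vertical axis) on each day (horizontal axis) in PCBP1 knockdown, PCBP2 knockdown and control for 8 members with large deposited changes. Scaf4 stood at 77.6%, 85.6% and 60% at Day 2 and at 58.8%, 57.7% and 61% at Day 0.

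The pooled tables give no spread between libraries, so use was also followed per library through the Salmon transcript levels. For 207 members that could be tested, the TPM of annotated transcripts that use the junction with the shortest intron was set over the TPM of those that use the other junctions. The log2 of this site ratio, with 0.1 TPM added to each side, was fitted with limma over 16724 features of the transcriptome, and calls were made where limma's p, adjusted by Benjamini-Hochberg over these features, was under 0.05. The 207 are members with both forms in annotated transcripts and enough RNA, and they say nothing of the unannotated sites.

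By this measure no tested member was called between a knockdown and the controls. In limma's test the counts were 0 of 207 in Day 2 PCBP1 knockdown, Day 2 PCBP2 knockdown, Day 0 PCBP1 knockdown and Day 0 PCBP2 knockdown, where 0.155%, 0.0658%, 0.0777% and 0.0239% of all features were called. At an unadjusted p under 0.05 there were 13, 15, 24 and 10 members (6.28%, 7.25%, 11.6% and 4.83%), against 12%, 9.54%, 8.78% and 5.45% of all features. PCBP2 against PCBP1 knockdown gave 0 of 207 at Day 2 and at Day 0, where 0.227% and 0.0359% of all features were called, with 20 and 13 members at an unadjusted p under 0.05 (9.66% and 6.28%, against 10.8% and 6.94% of all features). The change of the PCBP1 effect between days and that of the PCBP2 effect also gave 0 of 207, where 0.0239% and 0.00598% of all features were called, with 14 and 12 members at an unadjusted p under 0.05 (6.76% and 5.8%, against 6.73% and 5.85% of all features).

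Scaf4, the member with the highest deposited probability, was not called per library. The share of its annotated RNA that uses the upstream site was 57.5%, 63.6% and 53.8% in the Day 2 PCBP1 knockdown libraries and 65.1%, 56.5% and 66.3% in those of PCBP2 knockdown, against 44.1%, 59% and 59.2% in Day 2 controls. The PCBP2 knockdown and control libraries overlap. At Day 0 the shares lay between 44.4% and 51.3% in all 9 libraries, whereas the pooled E(PSI) of the same pair of sites was 59.1%, 57.8% and 61.1%.

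Tecta had shares of 61.6%, 62.4% and 55% in Day 2 PCBP1 knockdown and 74.8%, 63.9% and 74.9% in Day 2 PCBP2 knockdown, against 57.3%, 70.4% and 52.1% in Day 2 controls. These groups overlap as well. Tmem62 had 89%, 100% and 72.6% in Day 0 PCBP1 knockdown and 64.6%, 69.7% and 79.1% in Day 0 PCBP2 knockdown, against 85%, 91.4% and 74.8% in Day 0 controls. Dmap1 had 21.4%, 16.6% and 21.7% in Day 0 PCBP1 knockdown and 13%, 22.3% and 15.5% in Day 0 PCBP2 knockdown, against 16.8%, 16.7% and 17.9% in Day 0 controls. None of these separates a knockdown from its controls. Reps2 had 19.2%, 22.9% and 21.7% in Day 0 PCBP1 knockdown and 36.4%, 33% and 20.8% in Day 0 PCBP2 knockdown, against 39.7%, 41.2% and 41.1% in Day 0 controls. Neither knockdown overlaps the controls, but neither was called: the log2 ratio was -1.29 in PCBP1 knockdown (limma adjusted p 0.508) and -0.67 in PCBP2 knockdown (limma adjusted p 1). The PCBP2 shares went the same way as its E(PSI), at far lower levels.

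Scyl3 and Ehmt2 came closest to a call, and Ehmt2 was chosen after its values were seen. Scyl3 encodes a pseudokinase, and its 61-base segment shifts the frame: 3 annotated transcripts that use the upstream site are protein-coding, and the 1 that uses the downstream site is annotated as a target of nonsense-mediated decay. At Day 2 the upstream share was 68.3%, 74.7% and 70.8% in PCBP2 knockdown, against 92.6%, 86.1% and 100% in PCBP1 knockdown, with no overlap. The controls lay between, at 86.8%, 81.2% and 84.3%. Summed TPM averaged 1.78 in PCBP2 knockdown, 2.38 in PCBP1 knockdown and 1.73 in controls at Day 2, against 18.7, 20.4 and 19.1 at Day 0. The Day 2 shares of Scyl3 thus rest on little RNA. The log2 site ratio of PCBP2 against PCBP1 knockdown was -2.13 (SE 0.41), with a limma adjusted p of 0.0534. Over 15 alternatives the limma adjusted p ranged from 0.00967, without hairpin 3 of Day 2 PCBP1 knockdown, to 0.633, and it was under 0.05 in 4 of them.

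Ehmt2 encodes a histone H3 lysine methyltransferase. It had several tested members, and the one described first has sites 4 bases apart. At Day 0 the upstream share was 82.2%, 86.9% and 81% in PCBP1 knockdown and 93.2%, 95.4% and 93.3% in PCBP2 knockdown, against 95.5%, 97.2% and 96.6% in controls. The PCBP1 knockdown libraries were below all others of that day. The log2 ratio of PCBP1 knockdown against control was -2.37, and the limma adjusted p was 0.0995. Over 13 alternatives it ranged from 0.00335, with a pseudocount of 0.5 TPM, to 0.903, and it was under 0.05 in 2 of them. The pooled E(PSI) of the same site was 99.4% in PCBP1 knockdown, 99.7% in PCBP2 knockdown and 99.9% in controls, so the junction values did not show this difference. The cause was not tested. A further Ehmt2 member, with compared sites 71 bases apart, had 82.8%, 86.3% and 82.1% in Day 0 PCBP1 knockdown. Day 0 controls had 95.4%, 97.1% and 96.4% there (limma adjusted p 0.0907). Its pooled E(PSI) was 99.9% in PCBP1 knockdown, 100% in PCBP2 knockdown and 99.9% in controls. The summed TPM of the 2 members was 20.2 and 20.4 in Day 0 PCBP1 knockdown and 36.4 and 34.8 in Day 0 controls. Both compare transcripts of the same gene, so they are not separate evidence. Another tested Ehmt2 member showed no such difference, with a limma adjusted p of at least 0.787 over 13 alternatives.

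**Figure D4:**
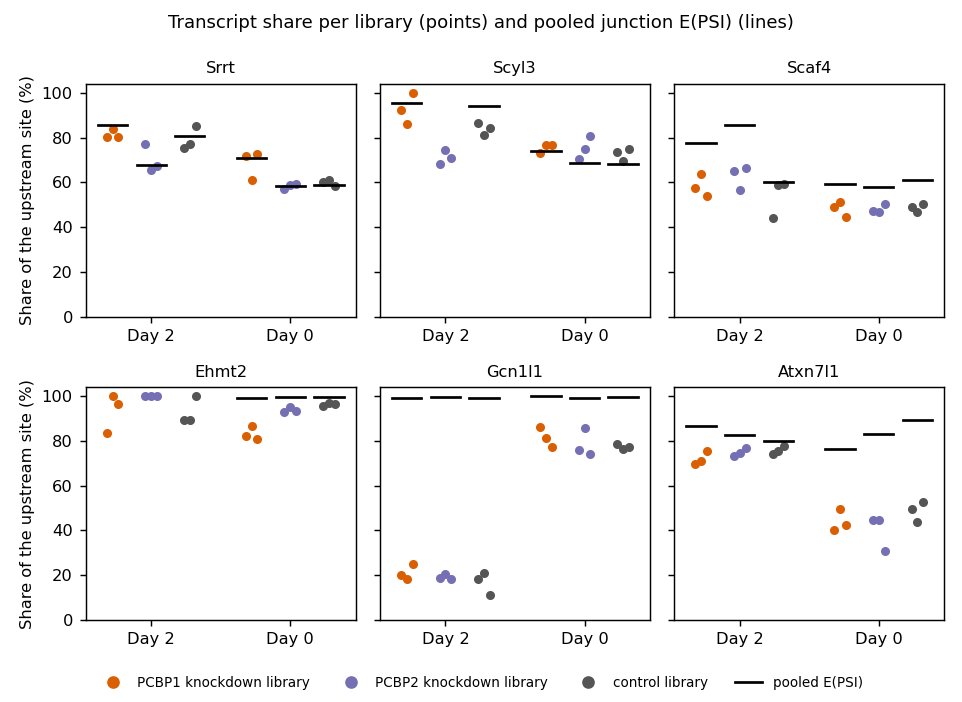
Share in percent of annotated RNA that uses the upstream of the sites compared (vertical axis) in each library, as points, with the pooled E(PSI) of the same site as a black line, by day and condition, for 6 members. Srrt points and lines lie close together, while those of Gcn1l1 at Day 2 lie near 20% and above 99%.

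Large differences between the days were found in a smaller share of these members than of all variations, a comparison that was not tested. Among members listed on both days, the E(PSI) of a junction differed by at least 10 points in 39 of 1583 in PCBP1 knockdown (2.46%, against 11.2% of all variations), in 40 of 1524 in PCBP2 knockdown (2.62%, against 15.2%) and in 55 of 1663 in controls (3.31%, against 14.3%). The E(PSI) of the site most used on each day, which can be a different site, was lower at Day 2 in 1237 control members and higher in 328. Its medians were 99.1% at Day 2 and 99.7% at Day 0. The pooled values give no read number, and the part of lower Day 2 RNA in this shift was not tested. Of the 55 control members, 46 were listed on both days in each knockdown, and the difference had the same direction in 39 of 46 in PCBP1 knockdown and 41 of 46 in PCBP2 knockdown. It reached 10 points in 12 and 11 of them. These 55 were picked by their size in the controls, so the knockdown counts are given as a description.

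Days differed in far more than splicing. The summed TPM of 9 erythroid marker genes was 393359 to 476269 in Day 2 libraries, against 7115 to 11222 in Day 0 libraries. The globin genes Hbb-bs and Hba-a1 are among these 9, and the sum does not show the other markers singly. That of 6 granulocyte markers was 320 to 726 against 1549 to 1959, that of 6 macrophage markers 3.05 to 6.17 against 25.4 to 34.7, that of 5 mast cell and basophil markers 1.26 to 3.57 against 25.8 to 39.5, and that of 5 hepatocyte markers 0.0182 to 0.336 against 7.01 to 28.6. The sum of 5 lymphoid markers was higher at Day 2, at 2.32 to 6.38 against 0.73 to 1.23. All genes of these lists were found, and all 9 erythroid markers averaged at least 1 TPM in each Day 0 group, whereas 1 of the 9 averaged under 1 TPM in each Day 2 group. Their part in the day differences was not tested. The RNA behind the tested members, as a share of the library, was also lower at Day 2: the median summed TPM of the 207 was 1.51, 1.31 and 1.09 in Day 2 PCBP1 knockdown, PCBP2 knockdown and controls, against 11.1, 11.3 and 11.6 at Day 0.

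In 5 members the 3 pooled groups of Day 2 lay at least 10 points from all 3 groups of Day 0, which is 0.346% of the 1444 members in all tables, against 6.1% of all variations. A gap of at least 5 points was found in 15 members (1.04%, against 11.8%). Ncstn and Vwf among the 5 were named after their values were seen. No test can be made from these pooled values.

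Cdk13, a cyclin-dependent kinase that phosphorylates RNA polymerase II, had the widest gap. Its upstream site, whose use adds 180 bases in frame, was at 65.6% in PCBP1 knockdown, 71.5% in PCBP2 knockdown and 73.8% in controls at Day 2, and at 34.1%, 36.1% and 39.3% at Day 0. The longer form was thus the more used at Day 2 and the less used at Day 0 in every condition. Zfyve26, known as spastizin and involved in autophagic lysosome reformation, had its annotated site at 56.4%, 53.2% and 68.5% at Day 2 and at 94%, 93.9% and 96.6% at Day 0. The site that took up the rest, 43.1%, 41.7% and 28.7% at Day 2, is not in GENCODE M21.

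Nemf belongs to the ribosome quality control complex that deals with stalled chains. Its second site was at 60.8% in PCBP1 knockdown, 72.5% in PCBP2 knockdown and 60.9% in controls at Day 2, and at 91.3%, 90.3% and 90.5% at Day 0. The third site, which removes a further 20 bases and shifts the frame, was at 38.4%, 26.2% and 35% at Day 2 and at 8.6%, 9.3% and 8.6% at Day 0. Ncstn, a subunit of gamma-secretase, had its annotated site at 69.4%, 60.8% and 74.4% at Day 2 and at 92.8%, 96.5% and 95.2% at Day 0. Vwf, the von Willebrand factor gene of megakaryocytes and endothelium, had its unannotated upstream site at 11.6%, 20.2% and 17.9% at Day 2 and at 0.5%, 0.4% and 1.2% at Day 0. The summed TPM of 5 megakaryocyte markers was 262 to 536 at Day 2, against 566 to 664 at Day 0, and that of 4 endothelial markers 3.4 to 6.02 against 4.86 to 6.35.

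Further members had large day differences in controls. Clcn6, a lysosomal chloride and proton exchanger, had its annotated site at 47.6% in PCBP1 knockdown and 57.5% in controls at Day 2, and at 98.6% in PCBP1 knockdown, 99.5% in PCBP2 knockdown and 99.6% in controls at Day 0. Phf20l1, a reader of methylated lysines, uses a 3-base pair around TAG together with an unannotated site further upstream. This unannotated site was at 9.7%, 9.5% and 22.9% at Day 2 and at 0.4%, 0.3% and 0% at Day 0. Stat5b, a transcription factor of erythropoietin signalling, had an unannotated site 114 bases upstream at 1.5% in PCBP1 knockdown and 15.4% in controls at Day 2 and at 0.2% in both at Day 0.

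**Figure D5:**
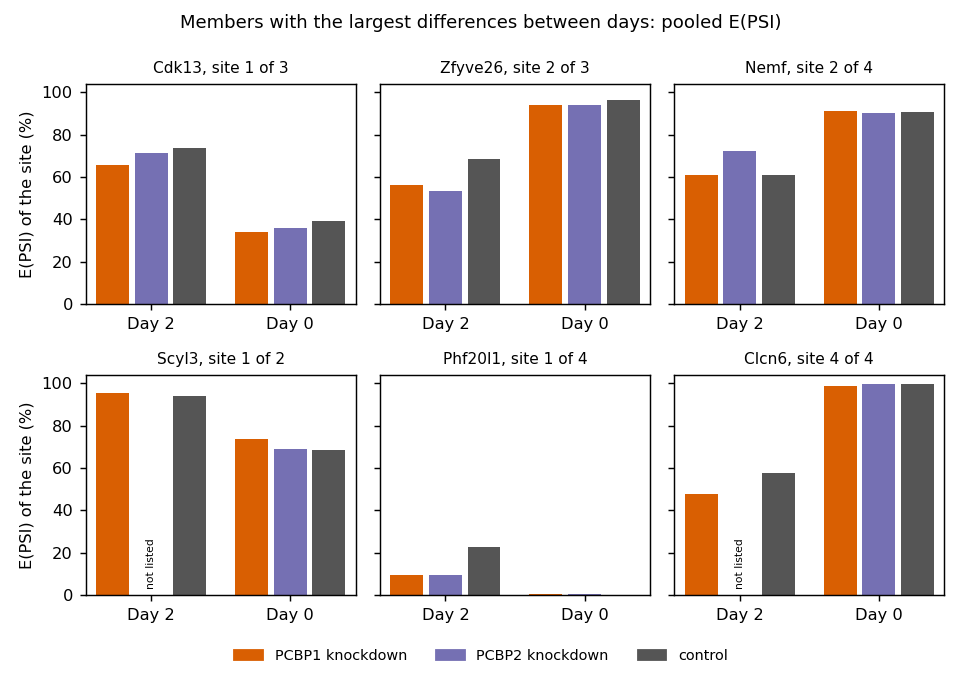
Pooled E(PSI) in percent of 1 site (vertical axis) at Day 2 and Day 0 (horizontal axis) in PCBP1 knockdown, PCBP2 knockdown and control for 6 members with the largest differences between days in controls. Cdk13 stood at 65.6%, 71.5% and 73.8% at Day 2 and at 34.1%, 36.1% and 39.3% at Day 0.

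Scyl3 was among these, and its libraries allow a test. Its upstream E(PSI) was 95.5% in PCBP1 knockdown and 94% in controls at Day 2, and 73.9%, 68.8% and 68.4% in PCBP1 knockdown, PCBP2 knockdown and controls at Day 0. Per library the upstream share in controls was 86.8%, 81.2% and 84.3% at Day 2, against 73.8%, 69.4% and 75.1% at Day 0, with no overlap but a limma adjusted p of 0.225. In PCBP1 knockdown it was 92.6%, 86.1% and 100% at Day 2, against 73.4%, 76.9% and 76.6% at Day 0, and the log2 ratio rose by 1.68 (SE 0.41, limma adjusted p 0.0065). In PCBP2 knockdown it was 68.3%, 74.7% and 70.8%, against 70.4%, 74.8% and 80.6%, which overlap.

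The site ratios of the days rest on little RNA at Day 2, so counts over the tested members are given here as a description. The filter on low values is a mean over all 18 libraries. Of the 207 members, 91 met it on each day, 110 at Day 0 alone and 6 at Day 2 alone. In limma's test 65 of 207 were called in PCBP1 knockdown (31.4%, against 33.8% of all features), 80 in PCBP2 knockdown (38.6%, against 40.1%) and 78 in controls (37.7%, against 39.5%). With a pseudocount of 1% of the summed TPM, added after seeing the data, limma's calls were 22, 31 and 24 (10.6%, 15% and 11.6%), against 19.9%, 25.4% and 23.4% of all features. Of the 91 members that met the filter on each day, 12, 19 and 14 were called with that pseudocount (13.2%, 20.9% and 15.4%), against 25.1%, 31.2% and 29.4% of the 12290 features that met it. Eng, Gcn1l1, Atxn7l1 and Fkbp8 were among those that met it on each day and were called in all 3 conditions with 0.1 TPM, 0.01 TPM and 1% added. Atxn7l1 and Fkbp8 were named for this after their values were seen.

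Eng encodes endoglin, a co-receptor for TGF-beta family ligands that marks endothelium and early erythroid progenitors. The share of its upstream site was 26%, 43.8% and 50.4% in PCBP1 knockdown, 47.1%, 50.4% and 53.5% in PCBP2 knockdown and 42.5%, 48.6% and 42% in controls at Day 2. At Day 0 it was 9.79%, 13.2% and 7.64%, then 12.1%, 10.7% and 10.1%, then 9.71%, 4.66% and 4.87% in the same order. All 9 Day 2 libraries were above all 9 of Day 0. Summed TPM averaged 2.45, 2.7 and 1.75 in these Day 2 groups, against 12.9, 12.5 and 16.1 at Day 0. The log2 ratio rose by 3.52 in controls (SE 0.36, limma adjusted p 5.81e-06), by 2.53 in PCBP1 knockdown and by 2.95 in PCBP2 knockdown. The pooled E(PSI) at Day 0 was 7%, 3.2% and 0.4%, and the member was not listed at Day 2.

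Per3, a period protein of the circadian clock, has a 3-base pair. Its upstream share was 44.9%, 46.1% and 36.9% in PCBP1 knockdown, 55.7%, 40.3% and 44.2% in PCBP2 knockdown and 47.2%, 47.5% and 63.3% in controls at Day 2, against 79.8% to 86.3% in the 9 libraries of Day 0. Its summed TPM averaged 0.739, 0.706 and 0.485 in these Day 2 groups, under the 1 TPM of the filter, against 3.54, 3.84 and 3.45 at Day 0. Tet2, a dioxygenase that oxidises methylated cytosine and is often mutated in blood cancers, had shares of 19.4% to 50.1% at Day 2 and of 8.09% to 13.8% at Day 0. Its summed TPM averaged 0.602, 0.555 and 0.386 in Day 2 PCBP1 knockdown, PCBP2 knockdown and controls, against 8.41, 7.98 and 7.01 at Day 0. Both members passed the filter through Day 0, so their shares are a description.

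Atxn7l1, a relative of a subunit of the SAGA coactivator, also has a 3-base pair, and its RNA was about level between days, at 9.6 TPM in Day 2 controls and 9.62 TPM in Day 0 controls. Its upstream share was 69.9%, 71% and 75.5% in PCBP1 knockdown, 73.5%, 74.5% and 77.1% in PCBP2 knockdown and 74%, 75.6% and 77.8% in controls at Day 2. At Day 0 it was 40.2%, 49.6% and 42.6%, then 44.5%, 44.7% and 31%, then 49.8%, 43.7% and 52.9%. The log2 ratio rose by 1.67 in controls (SE 0.27, limma adjusted p 0.000288). The pooled E(PSI) went the same way in PCBP1 knockdown, at 86.9% at Day 2 against 76.4% at Day 0, and the other way in controls, at 80.1% against 89.6%.

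The transcript shares and the junction values often parted. Among the members called between days in controls, 22 had an E(PSI) on both days. E(PSI) differed by at least 5 points the same way in 2 of them, the opposite way in 2 and by under 5 points in 18. These counts were 8, 0 and 12 of 20 in PCBP1 knockdown, and 2, 1 and 18 of 21 in PCBP2 knockdown. Gcn1l1 was among those under 5 points. The gene, the activator of the GCN2 stress kinase, has annotated sites 3 bases apart. Its transcript share was 10.9% to 24.9% in the 9 libraries of Day 2 and 74.1% to 86.5% in the 9 of Day 0, and its log2 ratio fell by 4.08 in controls (SE 0.35, limma adjusted p 1.33e-06). Its E(PSI) was 99.3%, 99.9% and 99.2% at Day 2 and 100%, 99.4% and 99.6% at Day 0. Salmon assigns reads over whole transcripts, which differ at other places too, while E(PSI) counts the junctions; which of these sets the gap was not tested.

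In Srrt, which was named after its values were seen, both sources went the same way. It encodes ARS2, a partner of the nuclear cap-binding complex, and its compared sites are 21 bases apart. The upstream share was 80.2%, 83.8% and 80.3% in PCBP1 knockdown, 77%, 65.8% and 67.4% in PCBP2 knockdown and 75.4%, 77% and 85.2% in controls at Day 2. At Day 0 it was 71.9%, 61.3% and 72.8%, then 57%, 58.9% and 59.5%, then 60.3%, 61% and 58.6%. In each condition all Day 2 libraries were above all Day 0 libraries. The log2 ratio rose by 1.36 in controls (SE 0.30, limma adjusted p 0.0027) and by 0.97 in PCBP1 knockdown (adjusted p 0.0228 in limma), and it was 0.74 in PCBP2 knockdown (limma adjusted p 0.0629). The pooled E(PSI) was 85.6%, 67.6% and 80.9% at Day 2 and 70.9%, 58.6% and 58.9% at Day 0.

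Members were also sought in lists of genes by role, chosen with earlier results of these data known. Of 56 erythroid genes, 5 held 8 members, of which 0 were called by the deposited probability and 0 had an E(dPSI) of 5 points, with the largest at 4.61 points in Stat5b. The other members in Stat5b, Fam210b and Myb had their main site at 92.5% or more in all groups that list them. Cdan1, mutated in congenital dyserythropoietic anemia, has a 3-base pair, and it was picked after its values were seen. Its upstream share was 63.7%, 65.5% and 63% in PCBP1 knockdown, 93.8%, 71.3% and 76.2% in PCBP2 knockdown and 60.2%, 63.1% and 81.4% in controls at Day 2. At Day 0 it was 44.7%, 49.3% and 45.4%, then 41.3%, 45.7% and 43.3%, then 49.8%, 34.5% and 39% in the same order, so the days did not overlap. The log2 ratio was 0.94 in PCBP1 knockdown (SE 0.44, limma adjusted p 0.115, not called), and it rose by 2.29 in PCBP2 knockdown (limma adjusted p 0.00101) and by 1.51 in controls (limma adjusted p 0.0145). E(PSI) at Day 0 was 52.4%, 60% and 56.8% in PCBP1 knockdown, PCBP2 knockdown and controls. The summed TPM of Cdan1 averaged 1.76, 1.88 and 1.51 in these groups at Day 2, against 7.95, 8.18 and 8.17 at Day 0.

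Of 37 factors of 3′ splice site recognition and the later splicing step, 8 held 13 members, with 0 calls and 1 member past 5 points. That member was in Ptbp2, a pyrimidine tract binding protein, whose 3-base pair had its upstream site at 50.6% in PCBP1 knockdown, 45.4% in PCBP2 knockdown and 59.9% in controls at Day 0 and whose downstream site had 6.85 points in PCBP2 knockdown in the authors' deposited table. Its transcript shares at Day 0 were 51.2%, 53.7% and 53.3% in PCBP1 knockdown and 56.5%, 47.7% and 51.8% in PCBP2 knockdown, against 42.9%, 59.8% and 62.4% in controls, which overlap. Dhx38, the helicase PRP16 of the later splicing step, itself has a 3-base pair, whose upstream site was at 57.2%, 53.4% and 57.6% at Day 2 and 57.8%, 57.8% and 54.2% at Day 0. It held its mixed use within 5 points over all 6 groups. Of 42 genes of SR proteins, hnRNPs and other splicing regulators, 1 held 1 member, with its main site at 99.7% or more. This was Mbnl3, one of the other regulators.

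Of 25 chromatin and DNA methylation genes, 14 held 37 members, with 0 calls and 0 with an E(dPSI) of 5 points. Kmt2d, a histone H3 lysine methyltransferase, had 89.7%, 82.2% and 85.3% at Day 2 and 88.5%, 80.2% and 69% at Day 0 at the upstream site of a 3-base pair, in PCBP1 knockdown, PCBP2 knockdown and controls. Dnmt3b, a de novo DNA methyltransferase, had 65%, 56.6% and 66.9% at Day 0 at its 3-base pair. Of 28 cell cycle and DNA repair genes, 9 held 20 members, with 0 calls and 1 past 5 points. That was Atm, the DNA damage kinase, whose upstream site was at 68.4%, 82.8% and 87.5% at Day 0, with -5.85 points in PCBP1 knockdown in the authors' deposited table.

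A list of 15 gene symbols covered genes in which human SF3B1-mutant cells use cryptic 3′ splice sites. Of these, 2 held 2 members, with a largest E(dPSI) of 0.993 points. They were Fam132b (erythroferrone, also listed as Erfe) and Zdhhc16. Of 10 genes with textbook alternative 3′ splice sites, 2 held 3 members, in Dnmt3b and Cd33. The median largest absolute E(dPSI) was 0.00 points in the erythroid, splice site, SR protein and cell cycle lists, 0.04 in the chromatin list, 0.17 in the SF3B1 list and 0.20 in the textbook list, against 0.01 points over all 3486 members, of which 54 reached 5 points.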

How the data were processed

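RNA of 18 libraries was sequenced. Per the submitters' processing notes, FastQC 0.11.9, Trim Galore 1.46.0, STAR 2.5.3a, SAMtools 1.9, Salmon 0.11.3 and GRCm38 were used. The authors deposited Salmon tables per library, with TPM and estimated counts for 111706 transcripts, of which 110403 matched GENCODE M21 and 1303 were not used. They also deposited 4 splicing tables of pooled groups, with E(PSI), E(dPSI) and a probability, all written as fractions and printed here as percent or points except the probability; the tool is not given in the sources used here. The flag headed as de novo read opposite to its header (flag 1 was annotated in 99.8% to 99.9% of member junctions), so annotation was taken from GENCODE M21. Members that share junctions were kept apart, and site distances were computed from junction ends. Site ratios were fitted with limma 3.58.1 in R 4.3.3 with 6 group means and 12 residual degrees of freedom, on features with a mean of at least 1 TPM summed and 0.1 TPM on each side. The script was tested on simulated data. Members, gene lists, tests and alternatives were chosen with earlier results of these data known. Named members were the 4 with the largest E(dPSI) per table (none passed the call), up to 4 called per ratio contrast, the 6 with the largest day difference in controls, up to 4 per list, and the most evenly used of each distance class; a few of these are not reported here, and others are said to be chosen after their values were seen. Alternatives were other pseudocounts, filters, priors, the 9 libraries of a day, left-out libraries and replicate blocks.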

Additional observations from a re-analysis of the deposited data

How the results depend on the processing

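At a probability of 0.50 the members counted were 2, 3, 2 and 2 in Day 2 PCBP1, Day 2 PCBP2, Day 0 PCBP1 and Day 0 PCBP2 knockdown, at an absolute E(dPSI) of 20 points 2, 3, 1 and 1, and at 10 points 4, 12, 6 and 5. A 5-point gap between days gave 15 members in place of 5. Site-ratio calls of limma in Day 0 PCBP1 knockdown were 2 with 0.5 TPM added and 2 with the 9 libraries of that day (both in Ehmt2). In Day 2 PCBP1 knockdown there was 1 with the 1% pseudocount (Nmb). PCBP2 against PCBP1 knockdown gave 1 at Day 0 with 0.5 TPM (Ehmt2), and at Day 2 gave 1 with 0.5 TPM (Scyl3), 2 with 0.01 TPM (Foxp1, Tfpi), 1 with the stricter filter, 1 with a trended, robust prior (both Scyl3), and 1 with the 1% pseudocount and 1 when it was joined to a filter met on each day (both Foxp1). The day calls, 65, 80 and 78 in PCBP1 knockdown, PCBP2 knockdown and controls, moved with the pseudocount and filter: 134, 142 and 141 with 0.5 TPM; 24, 30 and 20 with 0.01 TPM; 119, 130 and 132 with no filter; 21, 25 and 29 with the stricter filter; 22, 31 and 24 with 1%; and 12, 19 and 14 with 1% and a filter on each day. Over all features the shares called were 61.3%, 66.2% and 66.5% with 0.5 TPM, 18.5%, 22.6% and 20.8% with 0.01 TPM, 41.6%, 46.8% and 46.6% with no filter and 31.7%, 37.8% and 36.8% with the stricter filter. The no-filter setting tested 264 members, the stricter filter 83 and the filter on each day 91. Rhot1 reversed: its log2 day ratio of -2.06 in controls was 0.03 with 1%, and its -1.78 in PCBP2 knockdown was 0.42 with 0.01 TPM and 0.45 with 1%. The cause was not tested. Without a replicate, day calls ranged from 42 to 54, 62 to 68 and 58 to 67, knockdown calls from 0 to 0 except Day 2 PCBP2 knockdown with 0 to 1 (Srrd, adjusted p 0.0393 in limma without the first scrambled control) and Day 2 PCBP2 against PCBP1 knockdown with 0 to 1 (Scyl3); the interactions stayed at 0 to 0. With the construct as a replicate block the day calls were 49, 72 and 70, and with the hairpin number as a replicate block PCBP2 against PCBP1 knockdown gave 0 on either day. Libraries of the same construct did not deviate together between days (correlations of -0.007 to 0.027). Neither did PCBP1 and PCBP2 knockdown libraries with the same hairpin number on a day (correlations of -0.006 to 0.015). Of 542 values of 41 named day results under all alternatives, 442 kept direction and call, 97 lost the call and 3 changed sign. The pooled tables have no depth, so a small difference in E(PSI) has no error here; transcript shares at Day 2 rest on little RNA, and a miss there does not show equal use.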
